A study of Mus musculus with 10 samples.

Results

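Motile cilia are the beating hairs of multiciliated cells, which line the airways and clear mucus from the lung. The genes described here build that machinery: 36 genes of motile cilia in airway epithelium were listed by name, from transcription factors to the proteins of the axoneme, the microtubule core of a cilium. Of these, 32 had at least 1 probe set with a single gene symbol on the array, and the probe set with the highest mean over the 10 arrays stood for each gene. Mcidas, Dnai1, Dnai2 and Sntn were not analysed here. A filter on dim probe sets, which kept the upper 60% by mean level, left 29 of the 32 genes for testing, among 13382 genes tested in all. Ccdc40, Spag17 and Tekt2 lay under the filter and are described apart.

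Lung RNA came from C57BL/6J mice of 2 weeks of age, with 1 Affymetrix Mouse 430 2.0 array per mouse and the sex given as unknown. In the smoke group, 6 pups entered a chamber of cigarette smoke together with their mother at the age of 1 day, for 1 hour daily during 7 days and for 2 hours daily during the next 7 days, with particulate matter averaging 90 mg per cubic metre. The control group was 4 mice of the same age that stayed in filtered air. The labels name no altered allele in either group and no litter or array batch, so any p-value reflects how far these 10 arrays scatter. The comparison asks whether 2 weeks of smoke exposure from the first day of life changed the lung's content of motile cilia transcripts. In RNA from whole lung, fewer ciliated cells and less RNA per ciliated cell cannot be told apart, and several members (Tubb4b, Ift172 and Rfx3 among them) are also expressed in cells without motile cilia.

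As background, a cell commits to many motile cilia when Notch signalling is low and the geminin family protein Mcidas switches on a programme that includes Foxj1, the master regulator of motile ciliogenesis. FOXJ1 acts together with RFX factors, which bind the X-box, a DNA element near the start of many cilia genes. The axoneme they build has outer doublet microtubules around a central pair, with dynein arms as motors, radial spokes as signal relays and nexin links that turn sliding into bending. Loss of many of these proteins causes primary ciliary dyskinesia, a disease of poor airway clearance.

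The DNA just before the start site of the members was examined for the X-box, since it is the sequence that these genes are best known to share. Promoters from RefSeq (GRCm38.p6, 250 bases before to 50 after the start) were given for 30 of the 36 members, in 35 windows. The letters GTTGCC, an arm of the X-box, were searched on both strands, where the opposite strand reads GGCAAC. They occurred in 17 of the 35 member windows, or 48.6%, against 12.5% of all 32851 windows of the same length. Counted by gene, 16 of 30 members had a match (53.3%), against 14.1% of all 27025 genes. The count by window includes overlapping windows of Tekt2 that hold the same matches. In the last 60 bases before the start, 8 of 35 member windows had a match (22.9%), against 2.92% of all windows. A near palindrome of both arms, GTTNCC and GGNAAC with 0 to 3 bases between, occurred in 0 of 35 member windows and in 0.804% of all windows. This pattern required CC at the end of the first arm, so an arm such as gttgct, seen before GGCAAC in Hydin and Tekt2, was not counted. The 0 of 35 therefore does not cover looser forms of the X-box. The 8 windows with a match in those 60 bases are shown because they put the shared letters beside the start with different letters around them; matches elsewhere in the promoter are not shown. Each sequence is the 60 bases before the start, 5′ to 3′ on the gene's strand, with the matched letters in capitals.
Enkur: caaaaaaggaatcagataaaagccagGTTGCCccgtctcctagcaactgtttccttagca
Lrrc23: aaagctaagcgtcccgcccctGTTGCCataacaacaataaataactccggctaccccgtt
Tekt1: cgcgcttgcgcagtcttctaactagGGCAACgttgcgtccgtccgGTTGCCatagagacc
Tekt2: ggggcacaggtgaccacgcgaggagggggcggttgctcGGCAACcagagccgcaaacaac
Hydin: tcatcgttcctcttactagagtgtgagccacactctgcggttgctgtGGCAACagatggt
Drc1: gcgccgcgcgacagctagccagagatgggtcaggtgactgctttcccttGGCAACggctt
Ccdc113: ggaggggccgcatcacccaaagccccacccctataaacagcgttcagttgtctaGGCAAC
Cdhr3: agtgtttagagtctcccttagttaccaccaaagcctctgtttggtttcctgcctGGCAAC

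These windows lie at chr2:21205366-21205425 on the minus strand for Enkur, chr6:124779728-124779787 on the minus strand for Lrrc23 and chr11:72361883-72361942 on the minus strand for Tekt1. The Tekt2 window is chr4:126325689-126325748 on the minus strand and the Hydin window chr8:110266917-110266976 on the plus strand. Those of Drc1 (chr5:30281333-30281392) and Ccdc113 (chr8:95534040-95534099) are on the plus strand, and that of Cdhr3 (chr12:33092876-33092935) is on the minus strand. Tekt1 held a pair of matches, whose first bases lie 35 and 15 bases before the start, and each of the others held a single match. A match is a description of letters, and the arrays did not measure binding.

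No motile cilia gene passed the test for a change after smoke exposure. At an adjusted p under 0.05 in limma, 0 of the 29 members were lower and 0 were higher, against 0.702% of all genes lower and 0.0224% higher. At an unadjusted p under 0.05 there was 1 member, Ccdc39, while 10.2% of all genes reached that level. In 0 of the 29 members did the 6 smoke arrays lie wholly apart from the 4 control arrays, against 4.09% of all genes. The median log2 change, smoke minus control, was -0.048 over the members and 0.056 over all genes tested, and 20 of 29 members were below 0, against 43.1% of all genes. The sign of that median rests on a single mouse, since it was 0.027 without control array 4. Single members ranged from -0.58 (Dnah11) to 0.47 (Rfx2), with standard errors of 0.17 to 0.51 and adjusted p-values of 0.468 to 0.999.

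How large a change the arrays could have missed differs by gene. The 95% interval of the log2 change lay within a 1.5-fold change either way for 6 of the 29 members and within a 2-fold change for 17. Over the 29 members the median standard error was 0.29, close to the 0.26 of all genes. For the other 12 members the interval reaches past a 2-fold difference in at least 1 direction, so for them a change of that size was not excluded at this number of arrays.

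**Figure D1:**
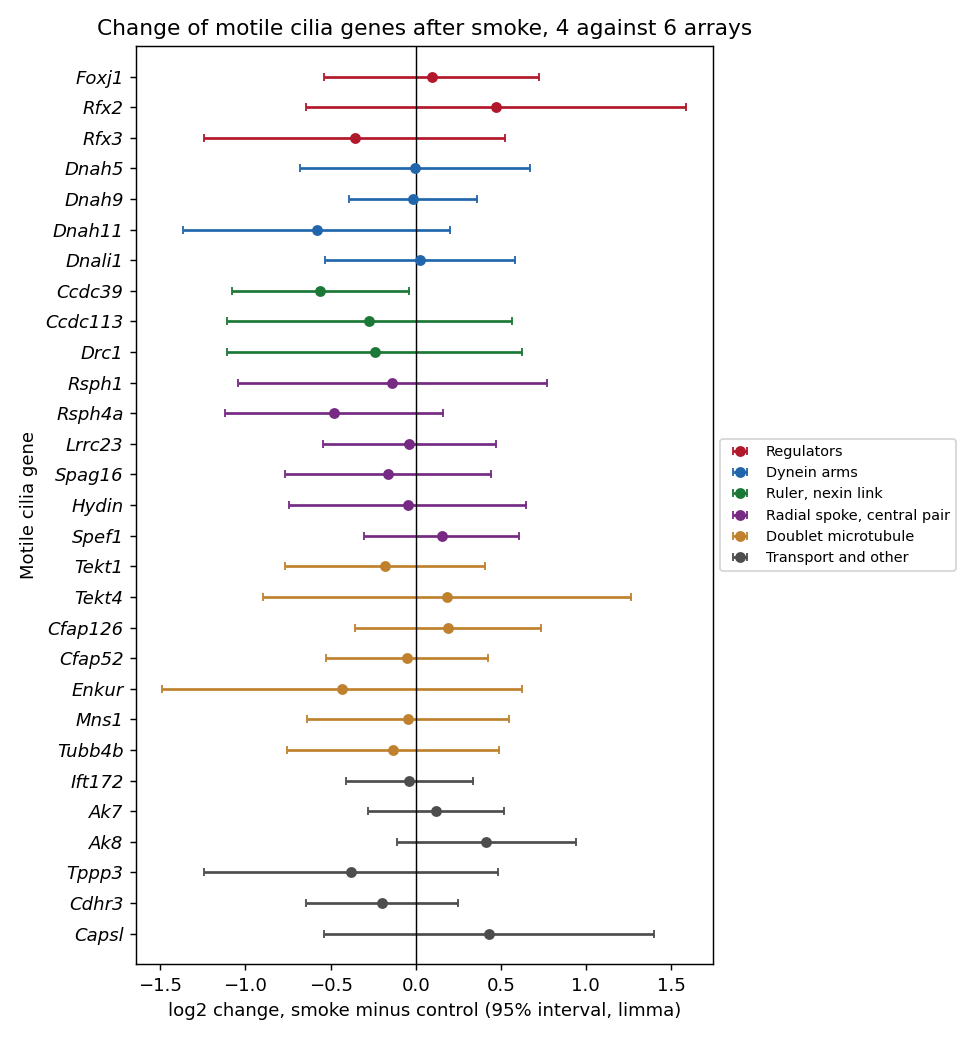
Log2 change (smoke minus control, x axis) of the 29 tested motile cilia genes (y axis, coloured by role), where points are limma estimates and bars are 95% intervals from 4 control and 6 smoke arrays. Every interval but that of Ccdc39 (-1.08 to -0.04) includes 0, and the widest are those of Rfx2, Tekt4 and Enkur.

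Among the regulators, Foxj1 had log2 intensities of 7.00, 7.01, 7.34 and 7.81 in control mice 1 to 4. Its smoke values had a lowest of 7.00, a median of 7.18 and a highest of 8.13. The groups overlap almost fully, and the log2 change was 0.095 ± 0.29 (limma estimate ± SE; adjusted p = 0.925), with a 95% interval of -0.54 to 0.73. The highest value was that of smoke mouse 2. Rfx3, an RFX factor needed for normal ciliogenesis, was at 8.70, 8.66, 9.56 and 9.15 in the controls. After smoke its values had a lowest of 6.99, a median of 9.03 and a highest of 9.19. The low value was that of smoke mouse 1 alone, and the other 5 smoke mice lay within the control range. The log2 change was -0.36 ± 0.41 (adjusted p = 0.789), and -0.024 without that array. Rfx2, its close relative, was at 5.82, 8.10, 6.63 and 6.73 in the controls and ran from 5.98 through a median of 7.14 to 8.53 after smoke. Its change of 0.47 ± 0.51 (adjusted p = 0.778) was the highest of the members and the least precise. It ranged from 0.14 without control array 1 to 0.90 without control array 2, was 0.23 without smoke array 1 and 0.010 without smoke arrays 1 and 2, and was -0.012 as the mean of all its probe sets.

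The dynein arms are the motors of the cilium. Dnah9, an outer arm heavy chain, was among the most even members, at 8.63, 8.62, 8.54 and 8.80 in the controls and at 8.42 to 8.83 with a median of 8.66 after smoke. Its log2 change was -0.015 ± 0.17 (adjusted p = 0.985), with an interval of -0.39 to 0.36. Dnah5, another outer arm heavy chain and a frequent site of mutation in primary ciliary dyskinesia, was at -0.0026 ± 0.31, and Dnali1, a light chain of inner arms, at 0.025 ± 0.26. Dnah11, an outer arm heavy chain of the proximal cilium, had the lowest change. Its control values were 7.84, 8.32, 7.55 and 8.13, and its smoke values ran from 6.33 through a median of 7.48 to 8.36. In this gene 4 of 6 smoke mice lay below every control and smoke mouse 4 lay above every control, giving -0.58 ± 0.36 (adjusted p = 0.600). Without smoke arrays 1 and 2 the Dnah11 change was -0.19.

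The ruler sets the spacing of the motors along the doublet, and the nexin link turns sliding into bending. Ccdc39, which with Ccdc40 forms the molecular ruler, was at 9.33, 9.84, 9.84 and 9.59 in the controls. After smoke it ran from 8.31 through a median of 9.28 to 9.38. Here 4 of 6 smoke mice lay below every control, smoke mice 1 and 3 lay just above control mouse 1, and smoke mice 5 and 6 were lowest. The log2 change was -0.56 ± 0.24 (unadjusted p = 0.0370 by limma, adjusted p = 0.468), with an interval of -1.08 to -0.04, and -0.40 without smoke array 5. Its probe set is of the kind (_s_at) whose probes can match more than 1 transcript. With the values centred on each array's median, or without control array 1, Ccdc39 did not overlap between groups, at log2 changes of -0.65 and -0.67, and did not pass the threshold (adjusted p = 0.458 and 0.568). Control array 1 was its only control within the smoke range, so leaving out that array removed the overlap by itself. Drc1, a nexin link subunit, was at -0.24 ± 0.40, and Ccdc113, a coiled-coil protein of the axoneme, at -0.27 ± 0.38 (adjusted p = 0.860 and 0.832). Ccdc40 lay under the filter, where the controls ran from 4.76 to 7.59 and the smoke mice from 4.36 to 7.54 on the log2 scale (mean difference -0.12, exact two-sided permutation p = 0.876).

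**Figure D2:**
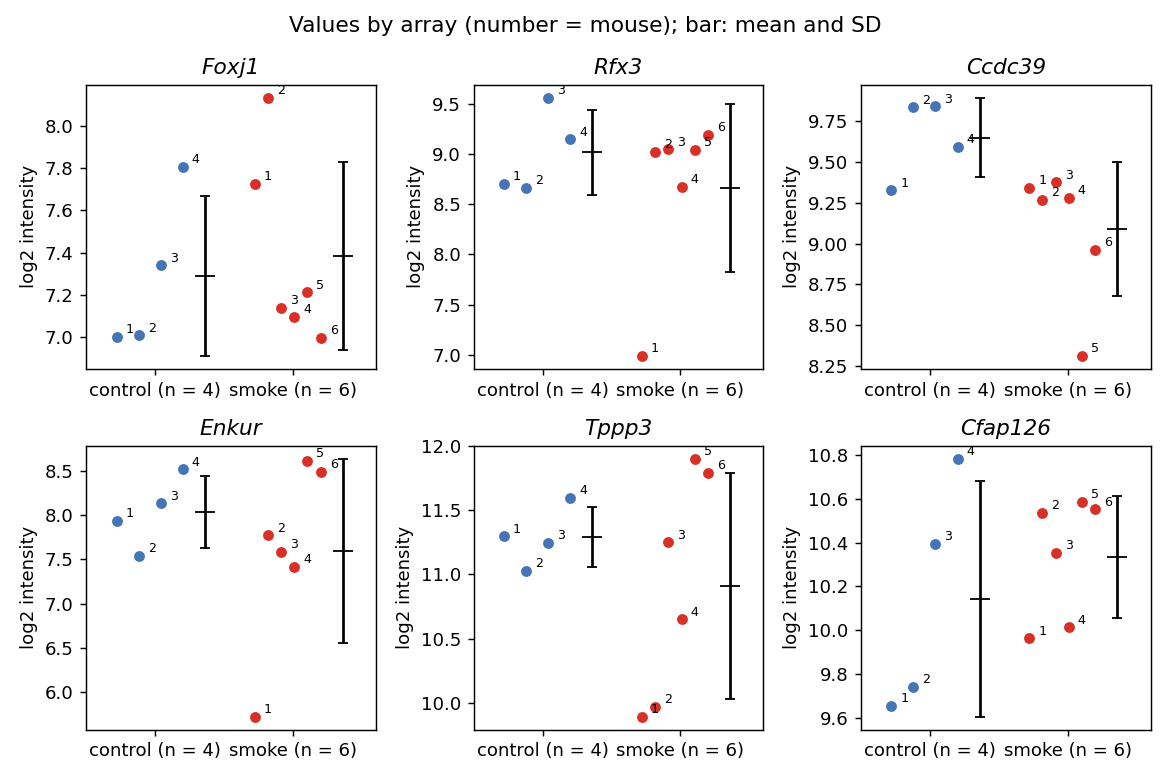
Log2 intensity (y axis) of 6 motile cilia genes in each control mouse (blue, n = 4) and each smoke mouse (red, n = 6); numbers name the mouse, and black bars give the mean and SD. Rfx3 and Enkur show 1 low array, smoke 1 (6.99 and 5.73), Tppp3 shows smoke mice 1 and 2 low and 5 and 6 high, and in Foxj1 and Cfap126 control mouse 4 is the highest control.

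Of the radial spoke and central pair genes, Rsph4a, a spoke head protein, was at 8.46, 8.50, 9.29 and 9.34 in the controls, which thus formed a lower and a higher pair. After smoke it ran from 7.80 through a median of 8.58 to 8.95, so that smoke mice 1 and 2 lay below every control and none lay above. The log2 change was -0.48 ± 0.29 (adjusted p = 0.597), and -0.19 without smoke arrays 1 and 2. Rsph1, another spoke head protein, had 1 low array, smoke 1 at 6.40, against 7.83 to 8.93 in the other smoke mice and 7.75 to 8.55 in the controls. Its change of -0.14 ± 0.42 became 0.19 without smoke array 1. Hydin, a large protein of the central pair whose loss causes hydrocephalus in mice, was at -0.048 ± 0.32. Spef1, a microtubule bundler of the central pair, was at 0.15 ± 0.21, Spag16 of the central pair at -0.16 ± 0.28, and the spoke protein Lrrc23 at -0.036 ± 0.23, with adjusted p-values of 0.828 to 0.971 for these 4. Spag17, a central pair protein under the filter, ran from 6.04 to 6.68 among controls and from 5.16 to 6.42 among smoke mice (mean difference -0.55, exact two-sided permutation p = 0.0762).

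Among genes of the doublet microtubules, Tubb4b, the main beta tubulin of axonemes, was at 11.46, 11.18, 11.58 and 12.08 in the controls and ran from 10.53 through a median of 11.57 to 12.00 after smoke. Its change was -0.13 ± 0.29 (adjusted p = 0.893). Its 3 other tested probe sets had log2 changes of -0.28, -0.039 and 0.68, and in them smoke array 1 was at 8.55, 9.89 and 9.58, against control means of 7.53, 8.68 and 7.31. Probe sets listed for Tubb4b therefore placed that array on opposite sides of the control mean. Those 3 are of the kind (_x_at) whose probes can match other transcripts. They were also dimmer, at mean log2 values of 7.36, 8.65 and 7.72, against 11.49 for the probe set used. Enkur, a protein inside the doublet lumen, was at 7.93, 7.54, 8.13 and 8.51 in the controls and ran from 5.73 through a median of 7.68 to 8.61 after smoke. The log2 change of Enkur was -0.43 ± 0.48 (adjusted p = 0.788), and -0.056 without smoke array 1. Cfap126, a planar polarity effector that positions basal bodies, was at 9.66, 9.74, 10.39 and 10.78 in the controls, a spread wider than the 9.96 to 10.58 of the smoke mice. Its change was 0.19 ± 0.25 (adjusted p = 0.817). Tekt1 and Tekt4, tektin filaments of the doublet, were at -0.18 ± 0.27 and 0.19 ± 0.50, and Cfap52 and Mns1, proteins of the doublet lumen, at -0.050 ± 0.22 and -0.044 ± 0.27. Tekt2, under the filter, ran from 6.33 to 7.23 among controls and from 4.56 to 7.27 among smoke mice (mean difference -0.56, exact two-sided permutation p = 0.400).

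The remaining members serve transport, energy or the cell surface. Tppp3, a tubulin-polymerising protein abundant in ciliated cells, was at 11.30, 11.03, 11.24 and 11.59 in the controls. After smoke its lowest value was 9.89, its median 10.95 and its highest 11.90. Smoke mice 1, 2 and 4 lay below every control and smoke mice 5 and 6 above every control, so the SD was 0.88 (n = 6) after smoke and 0.23 (n = 4) in controls. The log2 change was -0.38 ± 0.40 (adjusted p = 0.769). It was 0.11 when smoke arrays 1 and 2 were left out, and -0.85 with only arrays 1 to 4 of each group (adjusted p = 0.117 by limma). Ift172, a subunit of the transport train that carries cargo into all cilia, was nearly level at -0.038 ± 0.17, with an interval of -0.41 to 0.34. The adenylate kinases Ak7 and Ak8, which balance nucleotides in the axoneme, were at 0.12 ± 0.18 and 0.42 ± 0.24 (adjusted p = 0.850 and 0.578). Ak8 was at 6.77, 6.41, 6.85 and 7.29 in the controls and ran from 6.99 through a median of 7.27 to 7.48 after smoke. Control array 4 was its only control within the smoke range, so leaving out that array removed the overlap by itself. Cdhr3, a cadherin of ciliated cells that in humans is the receptor for rhinovirus C, was at -0.20 ± 0.21, and Capsl, a calcium-binding protein, at 0.43 ± 0.44 (adjusted p = 0.770 and 0.768). The Capsl change was 0.068 without control array 2, its lowest array at 6.31.

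The median size of a log2 change over the members was 0.18, smaller than the typical spread of a member among mice of a group. Over all genes it was 0.23, also below their median SDs of 0.25 in controls and 0.45 after smoke. A change is a difference of group means, while the spread is that of single mice. Among the controls, most members had the same mice high and the same mice low. Control mouse 4 was above the member's own mean over the 10 arrays in 28 of 29 members, the exception being Rfx2, and was the highest control in 19, against 23.6% of all genes. Control mouse 1 or 2 was the lowest control in 25 of 29 members, against 49.9% of all genes. Averaged over the 29 members, the deviation from each gene's mean was -0.18, -0.19, 0.17 and 0.39 (log2) in control mice 1 to 4. It was -0.35, 0.076, 0.010, -0.18, 0.058 and 0.20 in smoke mice 1 to 6. The range within the controls was thus about as wide as the range within the smoke mice, and the smoke mice fell inside it but for smoke mouse 1. The median SD of a member was 0.38 in controls and 0.45 after smoke, against 0.25 and 0.45 over all genes, and the smoke SD was the larger in 17 of 29 members, against 81.4% of all genes. Among the smoke mice the members were divided, and smoke mouse 1 was below the mean in 19 members and above it in 10. Genes were not matched on level for these shares.

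**Figure D3:**
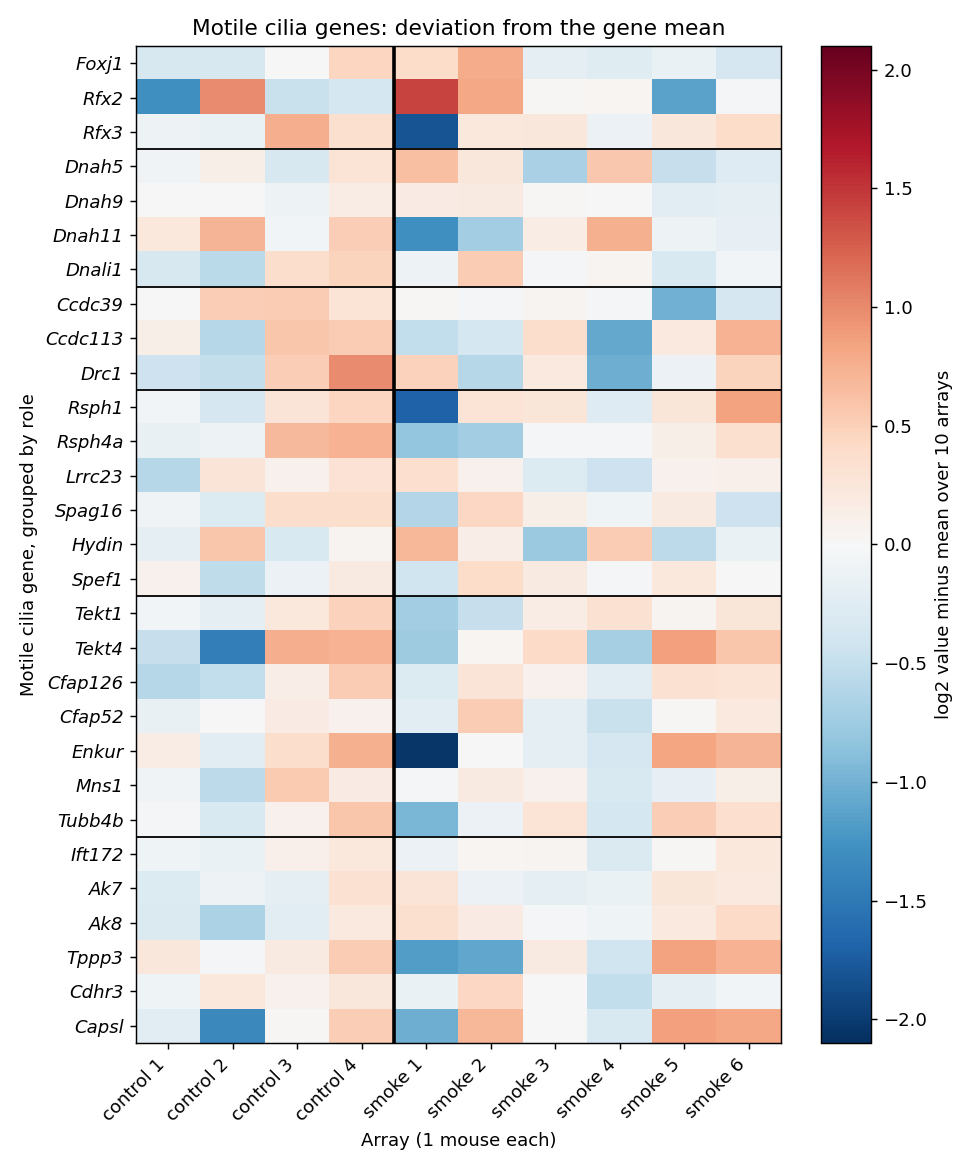
Deviation of each tested motile cilia gene (rows, grouped by role with lines between groups) from its own mean over 10 arrays, in log2 units, for each mouse (columns; controls left of the thick line). Control 4 is above the mean in 28 of 29 genes, and smoke 1 holds both low values (Enkur, Rsph1, Rfx3) and a high one (Rfx2).

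Some lists of other epithelial cells had the same low and high controls as the cilia genes, and others did not. The club cell list (secretory cells of the same airways) deviated by -0.33, -0.25, 0.22 and 0.31 in control mice 1 to 4, general epithelial genes by -0.18, -0.52, 0.16 and 0.29, and alveolar type 2 genes by -0.30, -0.41, 0.40 and 0.39. The 3 goblet cell genes tested deviated by -1.83, -2.80, 1.28 and 1.42. Alveolar type 1 genes, at 0.25, 0.018, -0.10 and -0.023, airway basal cell genes, at 1.04, -0.25, -0.67 and -0.33, and neuroendocrine genes, at -0.16, -0.0075, -0.45 and -0.026, did not share that order. Nor did the defining markers of club and type 2 cells, both near the top of the intensity scale: Scgb1a1 was at 14.50, 14.49, 14.47 and 14.39 in the controls, and Sftpc at 14.35, 14.47, 14.35 and 14.34. Another club cell marker, Scgb3a2, did share it, at 13.85, 13.92, 14.29 and 14.33. Control mouse 1 or 2 was the lowest control in 9 of 10 club cell genes and 7 of 9 type 2 genes, against 49.9% of all genes. The epithelial marker Epcam was at 9.31, 9.22, 9.95 and 9.84. Cartilage genes, which mark large airways, deviated by -0.15, -0.31, -0.17 and 0.42. Outside the epithelium, cardiac muscle genes deviated by -0.31, 0.12, 0.22 and 0.69. Of these 8 genes, control mouse 4 was highest in 6, and mouse 1 or 2 lowest in 7. Multiciliated cell fate genes, at -0.15, -0.39, -0.058 and -0.11, did not share the order. Of these 12 genes, control mouse 4 was highest in 2, and mouse 1 or 2 lowest in 5. Over all genes these shares were 23.6% and 49.9%. The part of epithelial content in the cilia values was not tested.

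**Figure D4:**
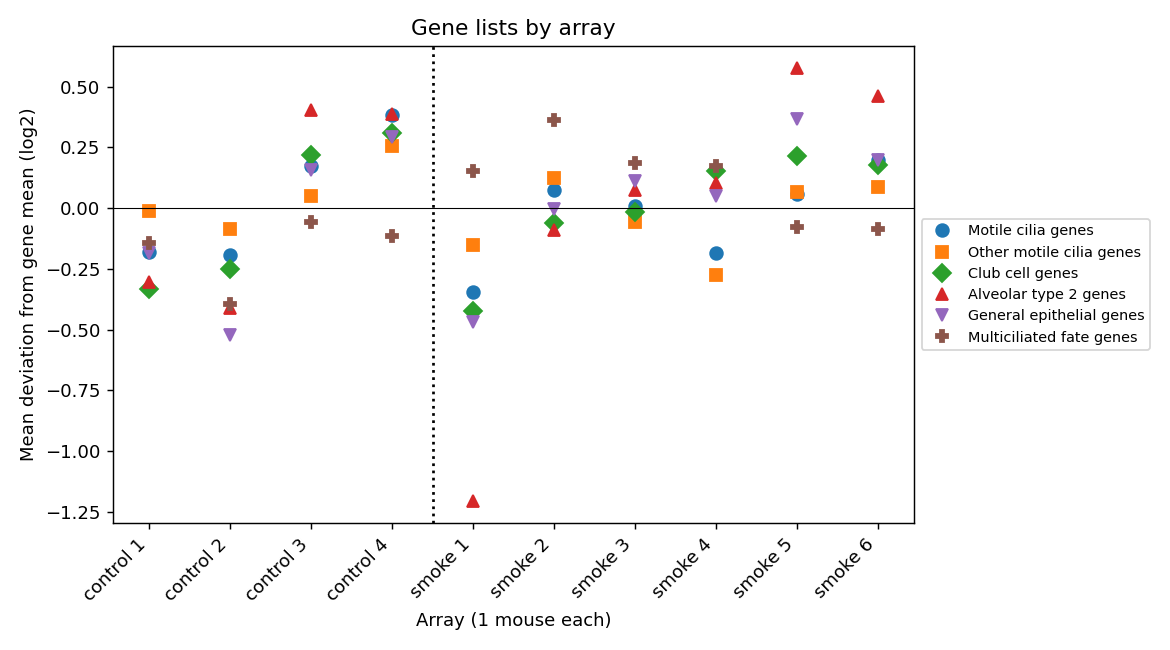
Mean deviation from the gene mean (y axis, log2) of 6 gene lists in each mouse (x axis; controls left of the dotted line), 1 symbol per list. In controls 1 and 2 the motile cilia, club, type 2 and epithelial lists lie below 0 and in controls 3 and 4 above it. The other motile cilia list does so too, at only -0.011 in control 1 and 0.048 in control 3. The multiciliated fate list lies below 0 in every control (-0.15, -0.39, -0.058 and -0.11). In smoke 1 the type 2 list is lowest, at -1.21.

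Marks of RNA quality and of sex also differed between the mice. The actin 3′ to 5′ ratio, which is high where RNA or its copying is incomplete, was 31.6 and 29.4 in smoke arrays 1 and 2, 9.26 and 10.3 in smoke arrays 3 and 4, 2.18 and 2.98 in smoke arrays 5 and 6, and 3.96 to 10.4 in controls. The Gapdh 3′ to 5′ ratio ordered the arrays otherwise, at 4.76 and 9.16 in smoke arrays 1 and 2, 5.94 and 3.68 in smoke arrays 3 and 4, 1.40 and 2.13 in smoke arrays 5 and 6, and 4.82 to 5.89 in controls. Xist, a transcript of the inactive X chromosome, was high in control mice 2 and 4 and smoke mice 5 and 6 (log2 of 13.96 to 14.09) and at 8.25 to 9.38 in the others. Smoke mice 5 and 6 thus had both the lowest actin and Gapdh ratios and high Xist, which cannot be told apart within the smoke group. Their values lay above those of smoke mice 1 to 4 in 7 members (Rsph4a, Tekt4, Cfap126, Enkur, Tubb4b, Tppp3 and Capsl) and below them in 3 (Rfx2, Dnah9 and Ccdc39), or 24.1% and 10.3%, against 22.9% and 25.4% of all genes. Smoke array 1 was the lowest array in 9 of 29 members, against 22.2% of all genes, and the highest in 4, against 25.6%. Among low-Xist mice (2 controls, 4 smoke) the median member difference was -0.100, with 11 of 29 members above 0, and among high-Xist mice (2 and 2) it was 0.069, with 16 above 0. In fits that held high Xist or the actin ratio (log2) as a covariate, or left out smoke arrays 1 and 2, 0 members passed by limma, and the lowest adjusted p was 0.125, for Ccdc39 beside the actin ratio.

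Other genes of the same programme gave the same count. Over all genes 0.725% were called, so a count of 0 in lists this short is near that share. Of 61 further motile cilia genes listed, 46 had a probe set with a single symbol and 33 were tested, and 0 of these were lower and 0 higher, with a median log2 change of -0.024. Those with the smallest p were Spag1, a dynein assembly factor, at 0.49 ± 0.21, Dnaaf5, another, at 0.50 ± 0.23, and Spag6l, of the central pair, at -1.44 ± 0.73 (adjusted p = 0.471, 0.497 and 0.534). Control mouse 4 was the highest control in 16 of the 33, against 23.6% of all genes. The lowest control was mouse 1 or 2 in 19 of the 33, against 49.9% of all genes and 25 of the 29 members. Genes of multiciliated cell fate and centriole amplification also had 0 of 12 past the threshold, with a median of 0.18. Their smallest p-values belonged to Cep152 at 1.14 ± 0.47 and Stil at 0.96 ± 0.41, both of centriole duplication in any dividing cell, and to Rfx1 at 0.69 ± 0.30 (adjusted p = 0.446, 0.467 and 0.480). Intraflagellar transport and primary cilium genes, which serve the single sensory cilium of most cells, had 0 of 34 past the threshold. Their median was 0.15, and 23.5% of them were below 0, against 69.0% of the motile cilia members. That share was 51.5% in the further motile cilia genes and 43.1% over all genes. The Hedgehog effector Gli2 was at 1.22 ± 0.45, the transport subunit Ift122 at 0.52 ± 0.19 and the Hedgehog transducer Smo at 0.75 ± 0.30 (adjusted p = 0.397, 0.399 and 0.439). The difference between these lists was not tested.

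The lists of neighbouring airway cells likewise held no called change, which for lists this short is near the 0.725% called over all genes. In the club cell list 0 of 10 genes passed, with a median of 0.090. Sult1d1, a sulfotransferase, was at -0.79 ± 0.26 and Cyp2s1 at 0.51 ± 0.22 (adjusted p = 0.324 and 0.487). Cyp2f2, a club cell cytochrome P450, was at 0.18 ± 0.08, above every control in 6 of 6 smoke mice (adjusted p = 0.511). Over all genes, 4.09% did not overlap between groups. In the Notch list 0 of 12 genes passed, with a median of 0.18. Its ligand Jag1 was at -0.44 ± 0.18, Heyl at 0.42 ± 0.18 and its target Hes1 at 0.48 ± 0.22 (adjusted p = 0.439, 0.480 and 0.497). The goblet, basal and neuroendocrine cell lists had 3, 5 and 2 genes tested and 0 past the threshold, and those of general epithelium, alveolar type 1 and type 2 cells had 0 of 11, 0 of 10 and 0 of 9. For cartilage, smooth muscle, cardiac muscle and mesothelium the counts were 0 of 5, 0 of 7, 0 of 8 and 0 of 5. As a check of the exposure in the same fit, Cyp1b1, an enzyme induced through the aryl hydrocarbon receptor, had a log2 change of 2.18 ± 0.39 (adjusted p = 0.0261).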

How the data were processed

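Values came from a table in which the authors gave every probe set a linear intensity per array, per the labels' protocols from Trizol RNA copied into cRNA; the program that summarised the probes is not given in the sources used here. A single 0 was replaced by the smallest value above 0. The log2 values were quantile normalized, then floored at the 10th percentile (intensity 15.8). After removal of 64 Affymetrix control probe sets from 45101, the brightest 60% by mean (27022) were tested. Symbols came from the platform annotation (34945 probe sets with 1 symbol, 932 with several, 9160 with none). The smoke effect was fitted in limma 3.58.1 under R 4.3.3 (lmFit, then eBayes with a variance trend), two-sided, with Benjamini-Hochberg adjustment over all tested probe sets; counts are by gene. The fit was tested on simulated arrays. For members below the filter an exact permutation test was used, where 0.00476 is the smallest p. Array pairs correlated at 0.747 to 0.975 and 0 were identical. Motifs were matched exactly.

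Every member was named, and of other lists at most the 3 genes with the smallest p (6 for the club cell, fate and other cilia lists). Outside that rule, Scgb1a1, Sftpc and Epcam were named as cell markers, Cyp1b1 for the exposure and Xist for sex. Other settings covered normalization, floor, filter, probe set choice, covariates, array weights and omitted arrays. The members and lists were chosen with earlier results of these data known. The number of arrays limits the precision.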

Additional observations from a re-analysis of the deposited data

Results flagged for a closer look

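Each of the 32 measured members was examined in both groups for an array that stood far from the rest, which made 64 groups. Such an array was found in 2 of the 64. Chance gives about 1 in 20, so these 2 are no more than chance gives. Rfx3 in smoke array 1 was at a log2 intensity of 6.99, while the nearest other smoke array was at 8.67 and the highest at 9.19. That array also had the highest actin 3′ to 5′ ratio (31.6), while its Gapdh 3′ to 5′ ratio (4.76) was below every control (4.82 to 5.89), and the part of RNA quality in this value was not tested. The dimmer probe set of Rfx3, under the filter, was at 6.60 in the same array, against a control mean of 6.35. Spag17, a dim gene under the filter, was at 6.04 in control array 3, the lowest control, while the nearest was at 6.58 and the highest at 6.68.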

How the results depend on the processing

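The counts of members lower and higher were 0 under each of 26 other settings, which gave 740 member values, 0 of them past the threshold. The number of members whose groups do not overlap was 1 with median centring (Ccdc39) and 0 to 1 over the single omissions (Ccdc39 without control array 1, Ak8 without control array 4). The share of all genes without overlap was not counted under these settings, and a group with fewer arrays separates more easily. The median log2 change of the members ran from -0.16 without control array 2 to 0.027 without control array 4, and was -0.0080 as deposited. No member had a called direction, and 18 of 29 changed sign in at least 1 setting, in 64 values in all. The replicate numbers shared by both groups did not pair the arrays (correlations of deviations of -0.068, 0.17, -0.060 and -0.050 for numbers 1 to 4). With the replicate block on arrays 1 to 4, 0 members were lower and 0 higher, with a median of -0.12 and a lowest adjusted p of 0.0845 for Tppp3, which was 0.117 without the block. Over all genes, 339 were lower and 449 higher with that block and 325 and 422 without it, against 94 and 3 with all arrays, and 220 and 151 with the actin ratio as a covariate. Choosing probe sets by the mean of the deposited values changed none of the members' probe sets. The number of arrays and the dim signal of Ccdc40, Spag17 and Tekt2 limit what these values can show.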
